A study of Rattus norvegicus with 12 samples.

Results

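The miR-379 to miR-410 cluster is a run of miRNA genes in the imprinted Dlk1-Dio3 domain. Its members were taken by name, from a list of 34 miRNAs of this cluster, and not by any measured value. The cluster itself was chosen with earlier results of these data known. The panel holds 35 assays for 29 of these names, beside 340 assays for other miRNAs. Of the 35 assays, 30 carry a mouse (mmu) and 5 a rat (rno) name, and miR-377, miR-381, miR-487b and miR-494 have an assay of each kind. No assay carried the names miR-543, miR-539, miR-496, miR-666 or miR-485.

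RNA came from parotid acinar cells of Sprague Dawley rats, listed as albino, with 3 samples at each of 4 ages: embryonic day 20 (E20), and postnatal days 5 (P5), 15 (P15) and 25 (P25). The acinar cells, which secrete the serous saliva of this gland, were cut out of frozen sections by laser capture after identification by their structure under the microscope. Each sample is thus captured tissue of many cells, and the samples of an age were taken from separate litters. The p-values below thus measure the spread between litters, except where values were entered for undetermined wells. At E20 the cells came from sections of embedded heads, and at P15 and P25 from glands that had been dissected out, so age and embedding cannot be told apart in these comparisons. There was no treatment and no genotype contrast, and the question was how miRNA levels move as the acinar cells mature. In such samples, fewer cells of a type and less RNA per cell cannot be told apart.

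In the Dlk1-Dio3 domain, the cluster's miRNAs are expressed from the maternally inherited chromosome and are processed from a long noncoding transcript. In rodents they are known from the embryo, the placenta and the brain, where miR-134, for example, acts on dendritic spines of neurons. A miRNA recognises its target mRNAs mainly through its seed, bases 2 to 8 from its 5′ end.

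In the RefSeq annotation of the rat genome build GRCr8, 33 of the 35 assays matched an annotated hairpin, and miR-453 and miR-679 are named only. The 27 hairpins lie on the plus strand of chr6:134543445-134579838, a stretch of 36.4 kb, and the matched assays stand for 28 distinct mature miRNAs with a sequence in the table. Of these, 9 come from the 5p arm of their hairpin, 17 from the 3p arm and 2 have no arm suffix. The arm measured by the miR-299 assay was not assigned. The 28 mature miRNAs carry 28 distinct seeds, so no seed is shared among them, while 4 pairs differ at 1 seed position. Outside these 28, miR-381-3p shares its seed with miR-539-3p, and miR-539 is a cluster name without an assay. The sequences printed are a selection: the 3 members called lower among those detected at every age (miR-541, miR-382 and miR-377), the members of the near-identical pairs, miR-409-3p and miR-667 for the largest change and the smallest adjusted p-value of the cluster in the fit with CT 40 below, and miR-758, with the most positive change among the 10 detected at every age. Each runs 5′ to 3′, and capitals mark the seed.
rno-miR-541-5p: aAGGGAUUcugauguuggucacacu
rno-miR-382-5p: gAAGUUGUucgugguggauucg
rno-miR-377-3p: uGAAUCACacaaaggcaacuuuu
rno-miR-379-5p: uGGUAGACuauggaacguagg
rno-miR-411-5p: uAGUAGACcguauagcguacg
rno-miR-376a-3p: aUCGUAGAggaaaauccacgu
rno-miR-376b-3p: aUCAUAGAggaacauccacuu
rno-miR-376c-3p: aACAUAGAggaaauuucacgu
rno-miR-300-3p: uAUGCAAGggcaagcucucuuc
rno-miR-381-3p: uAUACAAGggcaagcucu
rno-miR-409a-3p: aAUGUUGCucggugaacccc
rno-miR-667-3p: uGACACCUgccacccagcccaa
rno-miR-758-3p: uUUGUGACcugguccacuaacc

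The 4 pairs with seeds that differ at 1 position are miR-379-5p with miR-411-5p, miR-376a-3p with miR-376b-3p, miR-376b-3p with miR-376c-3p, and miR-300-3p with miR-381-3p. The 3 hairpins of the miR-376 group stand side by side, and their transcripts are known as substrates of A-to-I editing. The hairpin of miR-541 lies at chr6:134578421-134578510, that of miR-377 at chr6:134576456-134576527 and that of miR-382 at chr6:134569944-134570023. The sequences are those of the rat, whereas most assays carry mouse names, and the match of each mouse primer to the rat sequence was not tested.

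The measurement is the threshold cycle (CT) of a qRT-PCR well, the cycle at which the product crosses a fixed signal. A lower CT means more template, about 2 times more per cycle, and a well that never crosses it is undetermined. CT values of different assays depend on each primer's efficiency, so levels are compared between samples and not between miRNAs, except where stated for assay pairs.

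The number of panel assays with a CT ranged from 282 to 306 in E20 samples. P5 replicate 1 (224 assays) and P15 replicate 1 (179) stood below the other samples of their ages (247 to 307), and their median CTs were 34.1 and 34.8, while P25 replicate 1 had the fewest of its age (202). All samples are kept, and values without one are given where it decides a result. The interplate calibrator stayed between 17.9 and 19.4, and the blank wells gave 0 CTs. The epithelial and acinar miRNAs (miR-200 family, miR-141, miR-375, miR-148a, miR-203 and miR-205) were detected with 10 or 11 of their 11 assays in every sample. Of these 11, 2 rose from E20 to P25 and none fell, against 4.17% and 7.81% of the 192 panel assays tested. Their median change was 2.03 on the log2 scale.

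Cluster miRNAs were detected almost completely before birth, while at P25 no more than 1 of 3 samples had a CT for 23 of the 35, and 12 of these 23 were undetermined in every P25 sample. At E20, 32, 33 and 32 of the 35 assays gave a CT in replicates 1, 2 and 3. The numbers were 16, 32 and 27 at P5, and 10, 29 and 20 at P15. At P25 they were 10, 14 and 17, so every E20 sample lay above every P15 and P25 sample, while P5 reached from the P25 range to the E20 range. Each of the 35 was detected somewhere, 4 in all 12 samples, and 272 of the 420 cluster wells had a CT.

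**Figure D1:**
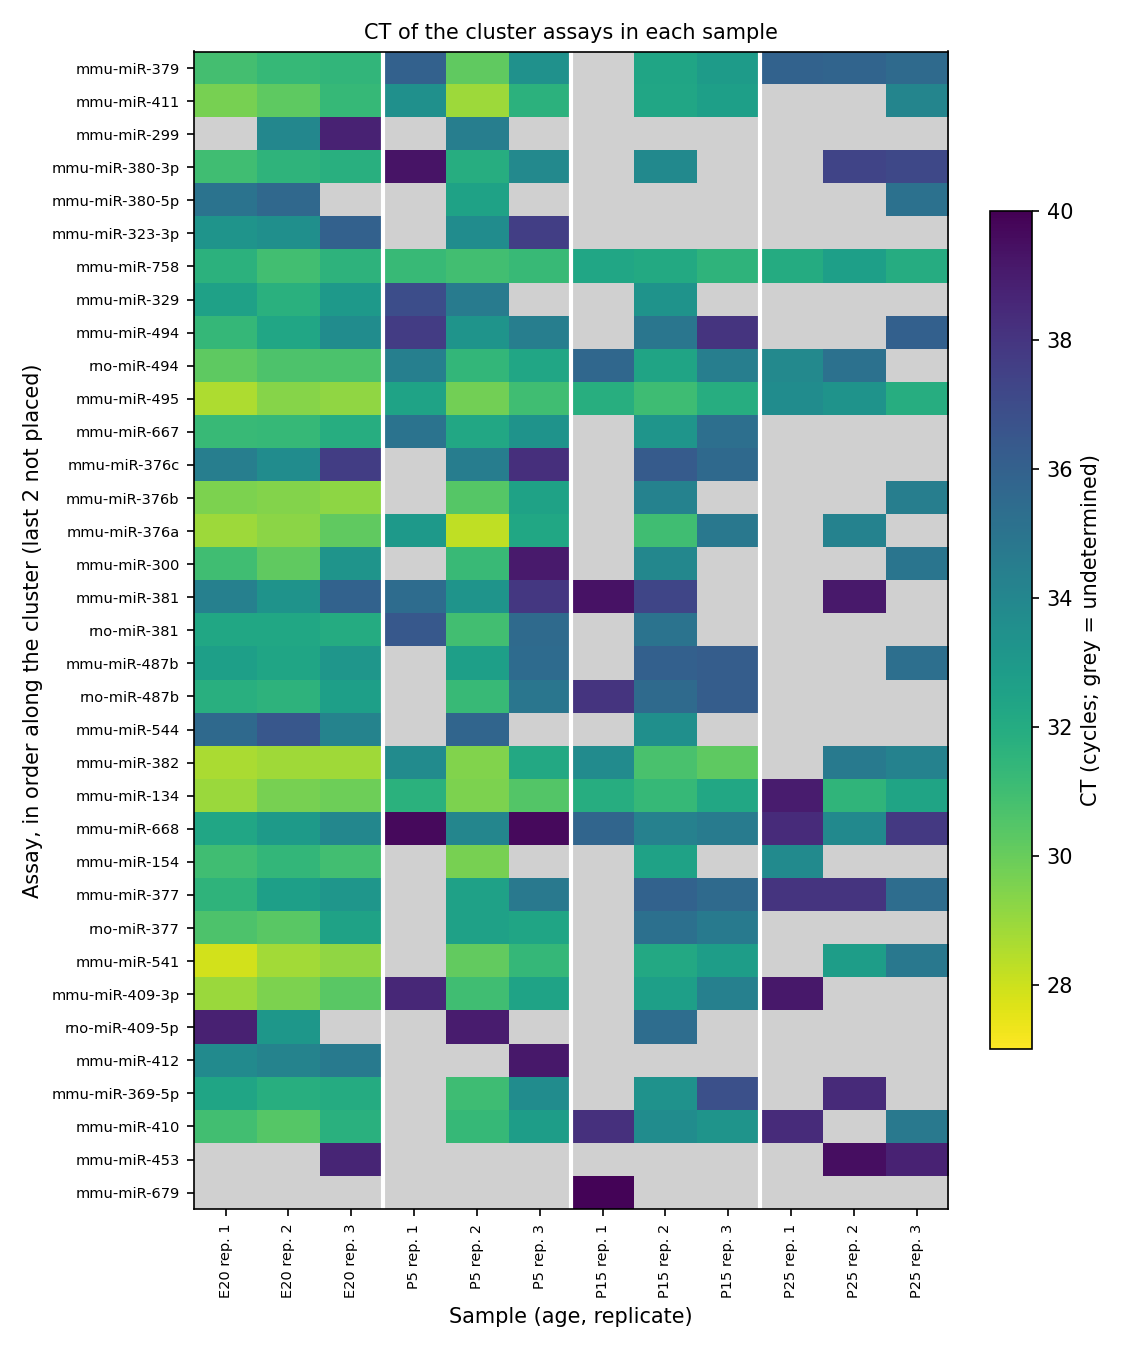
CT of each of the 35 cluster assays (vertical axis, in genomic order, with miR-453 and miR-679 last) in each of the 12 samples (horizontal axis, grouped by age); yellow is a low CT and much template, dark blue a high CT, and grey an undetermined well. E20 columns are nearly filled (32, 33 and 32 assays), whereas P25 columns are mostly grey (10, 14 and 17 assays), as are P5 replicate 1 and P15 replicate 1.

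The rest of the panel lost detection to a smaller extent. A CT in at least 2 of 3 replicates was met at E20 by 33 cluster assays (94.3%) and 265 of the 340 other assays (77.9%). At P5 it was met by 27 cluster assays (77.1%) and 242 others (71.2%), and at P15 by 21 (60%) and 226 (66.5%). At P25, 12 cluster assays (34.3%) and 198 others (58.2%) met it. The share of cluster assays with a CT thus moved from above that of the other assays to below it. Within the E20 samples the share of cluster assays was higher by 12.0, 14.0 and 17.9 percentage points, and within the P25 samples the differences were -27.9, -21.5 and -12.0 points. The sign of the difference varied between replicates after birth, at -15.5, 10.5 and 10.3 points at P5 and -21.1, 11.1 and -9.7 points at P15. The replicates 1 of P5, P15 and P25, which had the fewest detected assays of their ages, also had the most negative differences of their ages. At E20, replicate 3 had the fewest detected assays (282) and the most positive difference. The part of the samples' total detection in these differences was not tested.

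**Figure D2:**
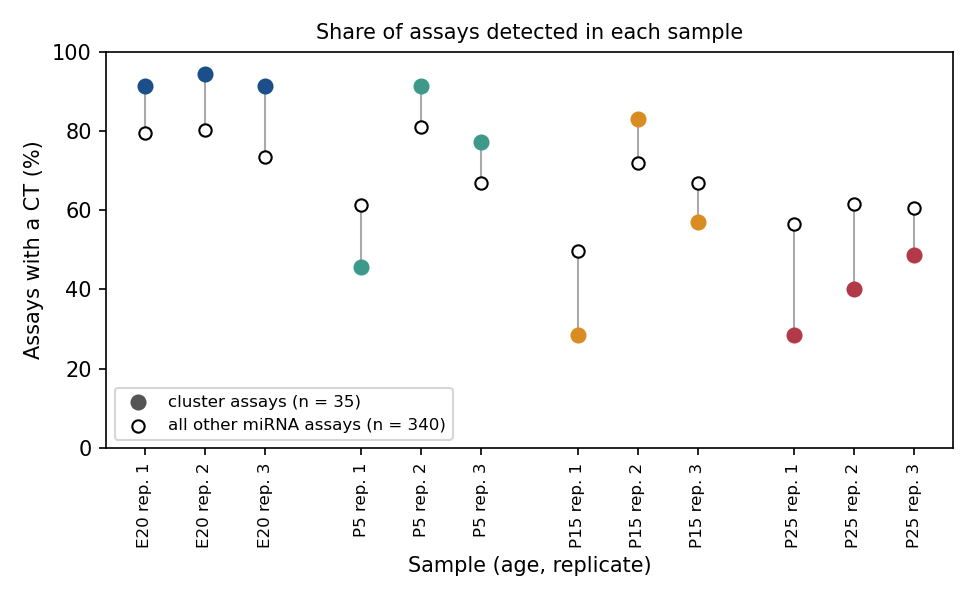
Percentage of assays with a CT (vertical axis) in each of the 12 samples (horizontal axis), for the 35 cluster assays (filled, coloured by age) and the 340 other miRNA assays (open). Filled points lie above open points in all 3 E20 samples and below them in all 3 P25 samples.

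The members can also be grouped by the ages at which at least 2 of 3 replicates had a CT, although replicate 1 weighs on this rule at P5 and P15. Detection held at all 4 ages for 10 assays (miR-134, mmu-miR-377, miR-379, miR-382, miR-410, miR-495, miR-541, miR-668, miR-758 and rno-miR-494). It held at E20, P5 and P15 but not at P25 for 11 assays, the most frequent course. For 5 assays it ended after P5, and for 6 it was met at E20 alone. The remaining 3 took other courses: miR-380-3p was detected at E20, P5 and P25, miR-453 at P25 alone with CTs of 39.5 and 38.8, and miR-679 at no age, since its lone CT was 39.9 in P15 replicate 1.

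A stricter description of loss is a CT in all 3 E20 samples with a CT in at most 1 P25 sample. Of the 30 cluster assays with 3 CTs at E20, 19 (63.3%) were lost in this sense, against 26.6% of the 263 assays of the whole panel with 3 CTs at E20. Among the assays outside the cluster and outside its neighbours in the domain, 43 of 218 (19.7%) were lost. The shares were also read within bands of the mean CT at E20. Under CT 30, 3 of 7 cluster assays (42.9%) and 1 of 61 others (1.64%) were lost. Between 30 and 32 the counts were 5 of 10 (50%) and 8 of 56 (14.3%), and between 32 and 34 they were 6 of 8 (75%) and 16 of 44 (36.4%). From CT 34 upward, 5 of 5 cluster assays (100%) and 18 of 57 others (31.6%) were lost. In each band the cluster share was the larger, and the median of the mean E20 CTs was close in both sets, at 31.5 cycles for the cluster and 31.7 for the others. Of the 19 lost assays, 9 had no CT at P25 and 10 had a single CT, 16 were still detected in at least 2 replicates at P5, and 11 at P15. These counts differed by sample: CTs for 8, 18 and 16 of the 19 were found in replicates 1, 2 and 3 at P5, 2, 17 and 10 at P15, and 2, 3 and 5 at P25. The loss between P5 and P15 was thus uneven among replicates, and the part of the samples' total detection in it was not tested. The low counts at P25 follow from the rule that picked these 19, at most 1 CT at P25. Leaving out a P25 or E20 sample can only loosen this rule, so the count of lost assays cannot fall. It was then between 19 and 23 for the cluster, while that of the whole panel went from 70 to between 72 and 100.

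The lost members are described in genomic order, with their CTs in replicates 1 to 3, and those with a mouse and a rat assay follow after them. Where fewer than 3 values are given for an age, the other replicates were undetermined. To test members that lost detection, limma was also fitted with undetermined wells entered at CT 40. Assays were kept there if at least 2 of 3 replicates had a CT at 1 or more ages. This filter lets in assays through a single age, and 6 cluster assays (miR-154, miR-299, miR-380-5p, miR-409-5p, miR-412 and miR-544) passed it through E20 alone, the age at which they were then tested for being high. Changes from this fit are differences of the level, the array's median CT minus the CT, on the log2 scale, and their size depends on the entry of 40. Wells entered at 40 differ between samples only by the array's median, so p-values of this fit do not fully measure the spread between litters. For miR-667, with the smallest adjusted p-value of the cluster, every P25 value was entered in this way. In this fit 311 assays could be tested, among them 34 cluster assays (all but miR-679). Lower at P25 than at E20 at an adjusted p-value under 0.05 were 15 of the 34, against 14.5% of all assays tested. None was higher, against 1.61%. The median change was -4.31 for the cluster assays and -0.50 for all assays, and 31 of 34 against 179 of 311 changes were negative. Without the assays that passed through E20 alone, 14 of 28 cluster assays and 41 of 282 assays were lower, with median changes of -4.98 and -0.42. Without E20 replicates 1 and 2 the count of 15 fell to 8 and 7, while that of all assays called in either direction fell from 50 to 35 and 33.

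At the 5′ end of the cluster, between miR-379 and miR-494, the members lost were miR-411, miR-323-3p, miR-329 and mmu-miR-494. mmu-miR-411 had CTs of 29.7, 30.2 and 31.3 at E20, 33.5, 28.9 and 31.7 at P5, 32.3 and 32.7 at P15 and 34.1 in P25 replicate 3. Its P25 value lay above every earlier value. mmu-miR-323-3p had CTs of 33.3, 33.5 and 35.9 at E20 and 33.7 and 37.6 at P5, and none at P15 or P25. mmu-miR-329 had CTs of 32.5, 31.8 and 32.95 at E20, 36.9 and 34.6 at P5 and 33.3 in P15 replicate 2, and none at P25. All 3 were called lower in the fit with CT 40, with changes of -5.91 (SE 1.74, adjusted p = 0.0325), -4.02 (SE 1.07, adjusted p = 0.0199) and -5.86 (SE 1.49, adjusted p = 0.0158). miR-329, like miR-134, is known as an activity-regulated miRNA of neurons. It shares its seed with miR-362-3p, a miRNA outside the cluster.

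From miR-495 to miR-544, 10 of the 11 assays were lost, all but miR-495. mmu-miR-667 had CTs of 31.2, 31.3 and 31.9 at E20, 35.1, 32.2 and 33.3 at P5, 33.2 and 35.3 at P15 and none at P25, and each of its later values lay above all of its E20 values. With CT 40 entered it fell by 6.81 (SE 1.11), with the smallest adjusted p-value of the cluster (0.00197). mmu-miR-376a had CTs of 28.9, 29.3 and 30.2 at E20, 33.04, 28.3 and 32.3 at P5, 30.97 and 34.8 at P15 and 34.2 in P25 replicate 2. mmu-miR-376b had CTs of 29.5, 29.4 and 29.2 at E20, 30.4 and 32.5 at P5, 34.3 in P15 replicate 2 and 34.4 in P25 replicate 3. mmu-miR-376c had CTs of 34.4, 33.7 and 37.6 at E20, 34.5 and 38.2 at P5, 36.3 and 35.6 at P15 and none at P25. All 3 of the group were thus detected in 1 or 2 of 3 samples at P15 and in at most 1 at P25. miR-376a fell by 6.89 (SE 1.77, adjusted p = 0.0171) and miR-376b by 7.04 (SE 1.95, adjusted p = 0.0237), whereas miR-376c, with a change of -3.03 (SE 1.20, adjusted p = 0.101), was not called.

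Further along the same stretch, mmu-miR-300 had CTs of 30.99, 30.2 and 33.3 at E20, 31.2 and 39.1 at P5, 33.96 in P15 replicate 2 and 34.9 in P25 replicate 3. mmu-miR-544 had CTs of 35.6, 36.5 and 34.2 at E20, 35.7 in P5 replicate 2, 33.5 in P15 replicate 2 and none at P25. Both were thus detected in few samples after birth, and their changes of -5.10 (SE 1.93, adjusted p = 0.0885) and -2.87 (SE 1.37, adjusted p = 0.176) were not called.

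At the 3′ end, from miR-154 to miR-410, 5 assays were lost. mmu-miR-409-3p had CTs of 28.96, 29.5 and 30.3 at E20, 38.5, 30.995 and 32.5 at P5, 32.7 and 34.3 at P15 and 39.2 in P25 replicate 1. Its change of -8.39 (SE 1.52, adjusted p = 0.00366) was the largest of the cluster in the fit with CT 40. mmu-miR-369-5p had CTs of 32.4, 31.8 and 31.996 at E20, 31.03 and 33.7 at P5, 33.4 and 36.8 at P15 and 38.5 in P25 replicate 2. mmu-miR-412 had CTs of 33.8, 34.2 and 34.7 at E20, 39.2 in P5 replicate 3 and none later. The level of miR-369-5p fell by 5.70 (SE 1.54, adjusted p = 0.021), and that of miR-412 fell by 4.06 (SE 0.94, adjusted p = 0.0105). miR-412 had been let into this fit by its E20 values alone. mmu-miR-154 had CTs of 30.99, 31.4 and 30.9 at E20 and then 29.7 in P5 replicate 2, 32.5 in P15 replicate 2 and 33.8 in P25 replicate 1, 1 of 3 samples at each later age. Its change was -5.11 (SE 2.41, adjusted p = 0.176).

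The 4 miRNAs with a mouse and a rat assay were each read by different primers under the same miRNA name. Whether both assays of a pair read the same target in the rat was not tested. rno-miR-377 had CTs of 30.6, 30.3 and 32.5 at E20, 32.6 and 32.4 at P5, 35.2 and 34.7 at P15 and none at P25. mmu-miR-377 had CTs of 31.6, 32.7 and 33.2 at E20, 32.5 and 34.7 at P5, 35.9 and 35.5 at P15 and 38.04, 38.04 and 35.3 at P25. Both lost template with age, but the rat assay lost detection at P25, where the mouse assay still gave 3 CTs. In the 7 samples where both had a CT, the mouse assay was later by 1.11 ± 0.895 cycles (SD, n = 7). With CT 40 entered, the rat assay fell by 7.13 (SE 1.51, adjusted p = 0.0073) and the change of the mouse assay was -2.95 (SE 1.33, adjusted p = 0.154).

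rno-miR-381 had CTs of 32.2, 32.3 and 31.98 at E20, 36.4, 30.96 and 35.5 at P5, 35.03 in P15 replicate 2 and none at P25. mmu-miR-381 had CTs of 34.4, 33.3 and 35.9 at E20, 35.4, 33.3 and 37.9 at P5, 39.4 and 37.3 at P15 (replicates 1 and 2) and 39.1 in P25 replicate 2. The mouse assay was later by 1.86 ± 1.52 cycles (SD, n = 7), in 6 of 7 samples. With CT 40 entered, the rat assay fell by 6.12 (SE 1.16, adjusted p = 0.00458), while the change of the mouse assay, -3.46 (SE 1.12, adjusted p = 0.0529), missed the threshold.

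rno-miR-487b had CTs of 31.8, 31.6 and 32.7 at E20, 31.2 and 34.9 at P5, 38.03, 35.5 and 36.2 at P15 and none at P25. mmu-miR-487b had CTs of 32.7, 32.4 and 33.2 at E20, 32.6 and 35.5 at P5, 36.01 and 36.2 at P15 and 35.3 in P25 replicate 3. The mouse assay was later by 0.674 ± 0.439 cycles (SD, n = 7), in all 7 samples. The rat assay fell by 6.27 (SE 1.24, adjusted p = 0.00487) and the change of the mouse assay was -3.96 (SE 1.43, adjusted p = 0.0794).

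rno-miR-494 had CTs of 30.2, 30.6 and 30.7 at E20, 34.4, 31.4 and 32.3 at P5, 35.7, 32.4 and 34.5 at P15 and 33.9 and 35.1 at P25. mmu-miR-494 had CTs of 31.3, 32.3 and 33.7 at E20, 37.7, 33.3 and 34.4 at P5, 34.9 and 38.03 at P15 and 36.01 in P25 replicate 3. The mouse assay was later in all 8 samples with both values, by 2.38 ± 0.852 cycles (SD, n = 8). It fell by 4.51 (SE 1.26, adjusted p = 0.0237), and the change of the rat assay in the same fit was -4.11 (SE 1.36, adjusted p = 0.0573). Both assays of each miRNA thus had negative changes in all 4 pairs, and in each pair 1 assay was called and the other was not.

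Besides the lost members, miR-380-3p and miR-382 were called lower in the fit with CT 40. mmu-miR-380-3p had CTs of 31.01, 31.5 and 31.8 at E20, 39.3, 31.9 and 33.9 at P5, 33.9 in P15 replicate 2 and 37.3 and 37.2 at P25, and its level fell by 5.01 (SE 1.51, adjusted p = 0.036). The 3 changes that were not negative belonged to miR-453 (1.85, SE 0.97), miR-758 (0.91, SE 0.91) and miR-380-5p (0.21, SE 1.74), with adjusted p-values of 0.212, 0.533 and 0.932. Array medians were 31.9 to 32.3 at E20 and 33.7 to 34.2 at P25, so a well entered at CT 40 had a higher level at P25. Most wells of miR-453 were entered at 40, and its CTs were 38.6 at E20 and 39.5 and 38.8 at P25. The opposite arms of 2 hairpins were both on the panel, and in the 4 samples with both values the CT of miR-409-3p minus that of miR-409-5p was -6.03 ± 3.46 cycles (SD, n = 4). For miR-380-3p minus miR-380-5p it was -1.68 ± 2.95 cycles (SD, n = 4), within its spread. Different primers measured the arms, so these differences hold primer efficiency as well as amount.

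The changes were spread over the whole 36.4 kb. Gaps of more than 3 kb between hairpins divide the cluster into 4 stretches. From miR-379 to miR-494 (8 hairpins), 4 of 8 assays with 3 CTs at E20 were lost, and changes in the fit with CT 40 ran from -5.91 to 0.91 with a median of -4.07. From miR-495 to miR-544 (9 hairpins), 10 of 11 were lost, with changes from -7.04 to -2.20 and a median of -5.10. From miR-382 to miR-668 (3 hairpins), 0 of 3 were lost and the changes were between -5.79 and -1.88. From miR-154 to miR-410 (7 hairpins), 5 of 8 were lost, with changes from -8.39 to -0.97 and a median of -5.11. Negative changes made up 8 of 10, 11 of 11, 3 of 3 and 9 of 9 of those tested, and no difference between the stretches was tested.

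**Figure D3:**
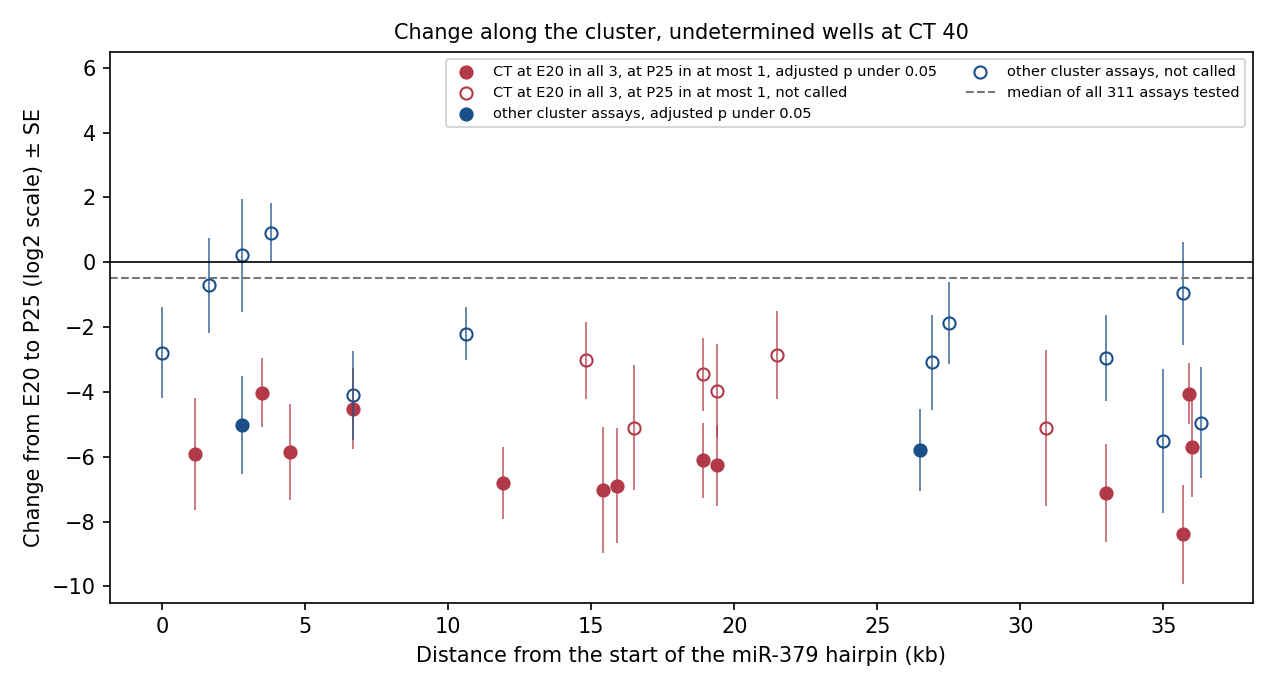
Change of level from E20 to P25 (vertical axis, log2 scale, bars are the SE of the limma fit with undetermined wells at CT 40) against the distance of each hairpin from the start of the miR-379 hairpin (horizontal axis, kb), for the 33 assays with a position; red marks the 19 lost assays, filled points an adjusted p-value under 0.05, and the dashed line the median of all 311 assays (-0.50). Points lie below the dashed line along the whole cluster, except miR-380-5p and miR-758 near its start, which lie above 0.

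The 10 assays detected at every age entered the test of levels across all 4 ages, in which 192 assays of the panel took part. Missing wells were imputed there, 10 of the 120 wells of these 10 assays, and the level is again the array's median CT minus the CT. From E20 to P25, miR-541, miR-382 and mmu-miR-377 were lower, 3 of 10, against 7.81% of all assays tested. None was higher, against 4.17%. The median change was -2.87 for the 10 cluster assays and 0.15 for all 192, and 9 of 10 against 89 of 192 were negative. At an unadjusted p-value under 0.05, 8 of 10 cluster assays and 62 of 192 assays differed. The count of 3 was 7 without P15 replicate 1, the sample with the fewest detected assays, and also 7 without both P15 replicate 1 and P5 replicate 1, while the count of all assays called in either direction rose from 23 to 39 and 41. With small nuclear RNAs in place of the array median as the reference, 0 assays of the panel were called, and the median change of the cluster assays was -1.87 against 1.15 for all.

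The levels of miR-541 were 4.06, 3.38 and 3.13 at E20, 1.18 and 1.64 at P5 (replicates 2 and 3), 0.76 in both measured replicates at P15, and 0.92 and -1.07 at P25 (replicates 2 and 3). All measured values after birth lay below all E20 values, and replicate 1 was undetermined at each age after birth. The level fell by 4.04 from E20 to P25 (SE 0.75, adjusted p = 0.00314), a fit that includes 3 imputed wells. With CT 40 in place of the imputed values the change was -5.51 (SE 2.21, adjusted p = 0.105) and was not called.

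The levels of miR-382 were 3.29, 3.33 and 3.42 at E20, 0.41, 1.88 and 0.86 at P5, 1.00, 2.17 and 3.31 at P15, and -0.99 and -0.52 at P25 (replicates 2 and 3). P25 lay below every other age, and 1 of the P15 values reached the E20 range. The level fell by 3.90 (SE 0.75, adjusted p = 0.00383) with the undetermined P25 well imputed, and by 5.79 (SE 1.28, adjusted p = 0.00789) with that well at CT 40.

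The levels of mmu-miR-377 were 0.37, -0.47 and -0.88 at E20, -1.22 and -1.72 at P5, -2.98 and -1.98 at P15 (replicates 2 and 3 at both ages), and -3.86, -4.33 and -1.64 at P25. The means stepped down at every age, from -0.33 ± 0.64 (SD, n = 3) at E20 to -3.28 ± 1.44 (SD, n = 3) at P25, and P25 replicate 3 overlapped with the values of P5 and P15. The level fell by 2.95 (SE 0.80, adjusted p = 0.0292). This call rested on single samples: the adjusted p-value was 0.0912 and 0.0724 without E20 replicates 1 and 2, and 0.0903 and 0.105 without P25 replicates 1 and 2.

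The next members by size did not pass the threshold. The change of miR-410 was -2.98 (SE 1.06, adjusted p = 0.0748), that of miR-379 -2.80 (SE 0.91, adjusted p = 0.0554), that of miR-495 -2.20 (SE 0.70, adjusted p = 0.0506) and that of rno-miR-494 -2.16 (SE 0.73, adjusted p = 0.0626). miR-379, the hairpin that opens the cluster, had levels of 1.03, 0.89 and 0.83 at E20 and -1.74, -2.09 and -1.81 at P25, groups that were far apart, while at P5 its 3 values ran from -1.80 to 1.13. miR-134 had levels of 2.99, 2.50 and 2.40 at E20 and -4.83, 2.19 and 1.30 at P25, so that its change of -3.08 (SE 1.31, adjusted p = 0.135) rested on P25 replicate 1, and was -0.89 without that sample. The change of miR-668 was -1.88 (SE 1.13, adjusted p = 0.271), with 3 values at P25 that ran from -4.20 to -0.11.

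miR-758 was the exception. Its levels were 0.26, 1.23 and 0.72 at E20, 2.91, 0.41 and 1.74 at P5, 2.47, 0.81 and 1.96 at P15, and 2.18, 1.02 and 1.75 at P25. It was measured in all 12 samples with CTs between 30.9 and 32.7, the ages overlapped, and its change of 0.91 (SE 0.80, adjusted p = 0.447) was not called and was -0.81 with no reference subtracted. Its hairpin lies 3.80 kb into the cluster, between those of miR-323 and miR-329, which were both lost.

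**Figure D4:**
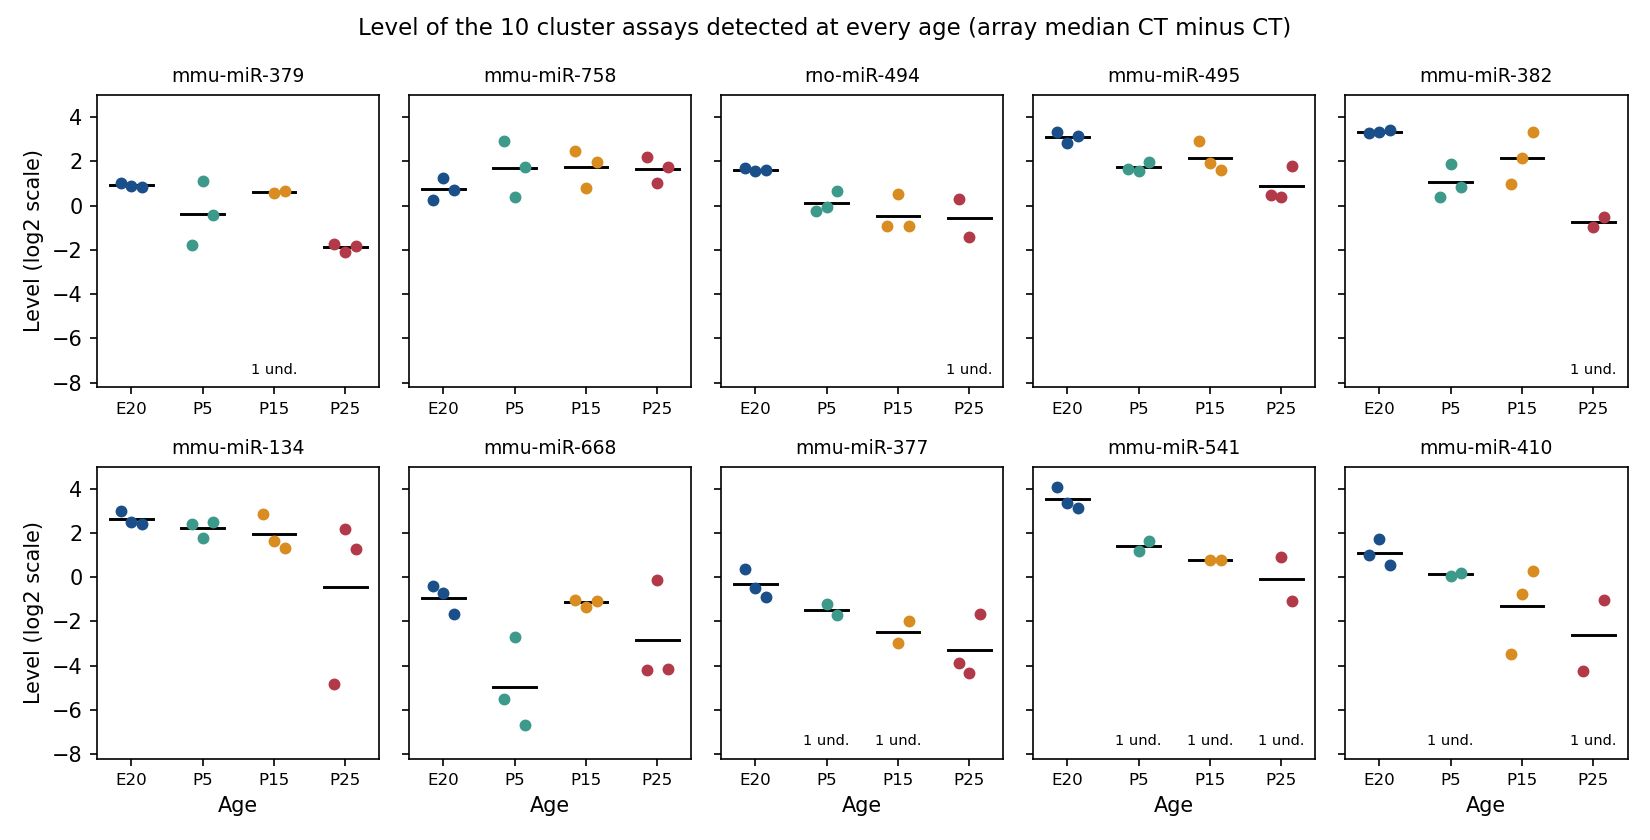
Level (vertical axis, array median CT minus CT, log2 scale) at each age (horizontal axis) of the 10 cluster assays detected at every age, in genomic order; points are samples, bars the mean of the measured values, and "und." the number of undetermined wells. Every measured P25 value lies below every E20 value in all panels but those of miR-668 and miR-758, whose ages overlap.

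Where an assay was measured in all 6 samples of E20 and P25, the groups can be compared without imputation. In 4 of 6 cluster assays (miR-495, mmu-miR-377, miR-134 and miR-379) all P25 levels lay below all E20 levels, against 17.3% of the 156 assays of the panel measured in these samples. miR-668 and miR-758 overlapped. With 3 samples against 3, an exact permutation test of any of these assays cannot give a p-value below 0.1.

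Over all 4 ages, 2 of the 10 cluster assays differed in the F test, miR-541 and miR-382, each with an adjusted p of 0.0213, against 7.81% of assays tested. Neither held when E20 replicate 1, 2 or 3 or P25 replicate 1 was left out, each of which gave 0 cluster assays and took the count of all assays from 15 to between 1 and 6. A falling linear trend over age was found for 3 of 10 (miR-541, miR-382 and mmu-miR-377; adjusted p = 0.00306, 0.00759 and 0.023), against 9.38%. With P15 replicate 1 left out, 7 of the 10 cluster assays had a trend, and without P15 replicate 3 there were 5, while the count of all assays with a trend in either direction rose from 27 to 41 and 30.

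Among the 10 cluster assays that could be tested without entering CT 40, none was called between ages closer than E20 and P25. From E20 to P5, from E20 to P15, from P5 to P15 and from P15 to P25, limma called 0 of 10 cluster assays, and 0% of all assays in each case. At an unadjusted p-value under 0.05 the counts of cluster assays were 3, 4, 1 and 1 of 10, against 15, 40, 12 and 17 of the 192 assays. From P5 to P25, 0 of 10 were called, against 3.12%, with 2 of 10 and 33 of 192 at an unadjusted p-value under 0.05. The median change of the 10 assays was -1.38 from E20 to P5, -0.14 from P5 to P15 and -1.16 from P15 to P25, and that of all assays was -0.18, 0.20 and -0.09. With undetermined wells at CT 40, 1 of 34 cluster assays (miR-412) was lower at P15 than at E20, against 2.25% of all assays, and 2 of 34 (rno-miR-381 and miR-667) were lower at P25 than at P5, against 3.22%. These shares were near those of the panel. miR-412 had passed the filter of this fit through E20 alone, the age at which it was then called high. Between E20 and P5, 0 of 34 cluster assays and 0% of all assays were called, with 6 and 28 at an unadjusted p-value under 0.05.

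The summed level of all detected cluster assays, the log2 of the sum of 2 to the power of each level, weights the abundant assays. It was 6.60, 6.52 and 6.19 at E20, 4.57, 5.55 and 5.06 at P5, 4.56, 5.02 and 4.88 at P15 and 3.17, 3.67 and 3.85 at P25. E20 lay above every later sample and P25 below every earlier one, while P5 and P15 overlapped. P5 replicate 1 and P15 replicate 1 were the lowest of their ages here too.

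The other miRNAs of the Dlk1-Dio3 domain were represented by 16 assays. Of these, 7 could be tested at all ages, and 3 were lower at P25 and 0 higher, against 7.81% and 4.17% of all assays tested. Their median change was -3.67 on the log2 scale. The 3 lower were miR-433 (-5.72, SE 0.91, adjusted p = 0.00106), miR-434-3p (-4.97, SE 1.12, adjusted p = 0.00864) and miR-431 (-3.23, SE 0.97, adjusted p = 0.0388). Of the 15 with 3 CTs at E20, 8 were lost by P25, against 26.6% over the panel. With CT 40 entered 8 of 16 were lower, against 14.5% of all assays tested, with a median change of -4.90.

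Markers of other cell types moved with the cluster in part. Of the 3 mesenchymal assays (miR-199a and miR-214), 1 was lower at P25, and their median change was -2.71; their summed level was 4.81 to 5.57 at E20, 3.62 to 5.73 at P5, 0.46 to 4.06 at P15 and 2.30 to 2.68 at P25, and all 3 had a CT in every sample. Of 6 striated muscle assays (miR-1, miR-133 and miR-206 among them), 3 could be tested and 2 were lower, with a median change of -4.07 and a summed level of 4.36 to 6.23 at E20 and 0.17 to 1.90 at P25. Of 3 smooth muscle assays (miR-143 and miR-145), 1 was higher, with a median change of 1.09. Among the assays detected at every age, none of the 3 nerve, 4 leukocyte or 1 endothelial assays was called, with median changes of -0.50, -0.53 and 0.93. With CT 40 entered, 1 of 7 nerve assays and 1 of 6 leukocyte assays were lower, with median changes of -1.43 and -0.77, and 1 nerve and 2 leukocyte assays were lost. Neither of the 2 erythrocyte assays was detected at every age; with CT 40 entered their median change was -3.73, neither was called, and 1 was lost. Over the panel, 7.81% of the assays detected at every age were lower at P25 and 4.17% higher. With CT 40 entered 14.5% of all assays tested were lower, and 26.6% of those with 3 CTs at E20 were lost. The part of these cell types in the fall of the cluster was not tested.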

How the data were processed

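MicroRNAs were measured by qRT-PCR (Exiqon Mouse&Rat panel I) in 12 samples, and all 12 were used. The authors reverse transcribed total RNA and deposited the CT of every well, a score on a log2-like cycle scale in which lower means more; the deposited scores were neither normalized nor imputed, although each array's median was listed beside them. In the analysis of this report, a CT under 40 counted as detected. The level subtracted each CT from the array's median over detected miRNAs. The filter asked for a CT in 2 or more of the 3 replicates of each age (192 assays), and missing wells (122 wells, 5.30%) were imputed from the k = 10 nearest neighbors, after the medians had been subtracted. The sources used here do not give the authors' k or detection rule. limma 3.58.1 in R 4.3.3 fitted the 4 age means over all 12 samples, with moderated contrasts, an F test and an orthogonal linear trend in days (E20 at day -2, birth taken at E22). p-values were adjusted by Benjamini-Hochberg over all assays tested in a comparison, at an adjusted p-value under 0.05. A further fit entered undetermined wells at CT 40 (311 assays). The E20 to P25 contrast with imputed wells was tested on simulated data, in which wells were blanked whatever their simulated level. The fit with CT 40 and the count of lost assays were not tested in this way. Sequences and positions were taken from RefSeq tables of GRCr8; arms of unsuffixed assay names were assigned by hand for this work. Figures were drawn with matplotlib.

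The cluster, the tests and the marker lists were chosen with earlier results of these data known. CTs or levels in every sample are given for members called or lost between E20 and P25, for the member with the largest rise among the 10 tested and for those with a mouse and a rat assay; the others are given by ranges and counts. The lists held 14 other miRNAs of the Dlk1-Dio3 domain and markers of epithelial and acinar cells, mesenchyme, smooth muscle, striated muscle, nerve, endothelium, leukocytes and erythrocytes. Samples were also left out in turn, and the filter, imputation, reference, CT limit and statistics were varied. Replicate numbers are shared by the ages. Over the 120 miRNAs with a CT in all 12 samples, the deviations of same-numbered samples from their age means correlated above 0.1 in 9 of 9 pairs among P5, P15 and P25 (0.126 to 0.563) and in 1 of 9 pairs with E20 (-0.234 to 0.123). The same numbers thus varied together after birth and not with E20. No comparison of the report carries the block; fits with it are given among the alternatives.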

Additional observations from a re-analysis of the deposited data

How the results depend on the processing

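The median change of the tested cluster assays from E20 to P25 was negative under every setting run. It was -2.04 over miRNAs with a CT in all 12 samples (4 cluster assays), -2.20 over miRNAs with a CT in at least 6 of 12 samples, -4.31 with undetermined wells at CT 40 and the wider filter, -2.14 with the median taken after imputation, -1.87 with small nuclear RNAs as the reference and -4.60 with no reference, and between -3.11 and -2.34 with a sample left out. The reference moved all assays together, since the median change of the whole panel was 0.15 with the array median, 0.88 with the median after imputation, 1.15 with small nuclear RNAs and -1.58 with none. miR-758 turned to -0.81 (adjusted p = 0.597) with no reference.

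Counts of called cluster assays moved more. Each is followed in brackets by the count of all panel assays called under the same setting. From E20 to P25 the count of 3 (23) became 0 (6) over miRNAs with a CT in all 12 samples, where none of the 3 called assays could be tested. It was 0 (0) with small nuclear RNAs, where the changes of miR-541, miR-382 and mmu-miR-377 were -3.03, -2.90 and -1.95. It was 1 (10) with CT 40 in the same 10 assays, and 5 (25) with measured wells alone. With a CT limit of 37, which left 7 cluster assays, it was 5 (26). It was 5 (17) without moderation, 5 (32) with the replicate block and 6 (35) with only these ages fitted. The mean of the always detected miRNAs as reference gave 7 (35), and leaving out both P5 replicate 1 and P15 replicate 1 gave 7 (41). It was 8 (26) with no reference, 12 (38) of 27 cluster assays with a CT in at least 6 samples, and 15 (50) with the wider filter and CT 40. With a sample left out it was 2 to 7 (11 to 39). The trend count of 3 (27) became 0 (10), 0 (0), 1 (12), 5 (42), 5 (26), 5 (25), 5 (40), 6 (40), 7 (40), 8 (32), 12 (43) and 16 (53) with, in order, a CT in all 12 samples, small nuclear RNAs, CT 40, the median of the always detected miRNAs, a CT limit of 37, no moderation, the replicate block, the mean of the always detected miRNAs, both P5 replicate 1 and P15 replicate 1 left out, no reference, a CT in at least 6 samples, and the wider filter with CT 40. With a sample left out it was 2 to 7 (14 to 41). The count of 2 (15) in the F test was 0 (7) over miRNAs with a CT in all 12 samples and 0 (3) with CT 40. It was 0 (0) with small nuclear RNAs and with no reference, 1 (10) with measured wells alone and 7 (29) with the wider filter. With a sample left out it was 0 to 3 (1 to 21). From E20 to P15 the count of 0 (0) became 2 (6) with a CT in at least 6 samples and 1 (8) with the wider filter. It was 1 (6) with the median or the mean of the always detected miRNAs and 1 (8) with the median after imputation. A CT limit of 35 gave 1 (1), and the replicate block 1 (11). From P5 to P25 the count of 0 (6) became 2 (13) with the wider filter. With a sample left out, the counts were 0 to 1 from E20 to P5 (0 to 2), E20 to P15 (0 to 6) and P15 to P25 (0 to 1). They were 0 in the other comparisons, where the panel had at most 11. The replicate block moved no other call count of the cluster by over 1.5 times, and from P5 to P25 it gave 0 cluster assays of 9 called; paired changes rest on replicate numbers alone.

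With CT 40, the count of 15 was 9 without moderation, 20 with the replicate block and 7 to 18 with a sample left out. The count of all assays called in either direction went from 50 to 43, 62 and 33 to 67 in the same settings. The count of 19 lost assays was 19 to 23 with a sample left out, which cannot lower it, while that of the panel was 70 to 100. Of the 5 rat cluster assays taken alone 3 were lost, and 11 rat assays over the panel. These results rest on 3 samples an age and on wells near the detection limit, where 272 of 420 gave a CT.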
